A study of Mus musculus with 8 samples.

Results

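The genes described here encode cytosolic chaperones, their cochaperones and the heat shock factors. They were taken by gene symbol from an array comparison of brown adipocytes given the compound Z16078526 or its vehicle. The symbols covered the chaperonin subunits (Cct2 to Cct8, Cct6a, Tcp1), prefoldin, HSP90 with Chordc1, Stip1, Ahsa1, Fkbp4 and Ptges3, cytosolic HSP70 and HSP110 genes, J-domain proteins of the Dnaja and Dnajb families, the BAG family, the small heat shock proteins with Cryab, and the factors Hsf1 and Hsf2. Of 16593 genes measured, 45 matched. Hsf1, Hsp90ab1 and Hspa1b were not analysed here. Mitochondrial Dnaja3 came in through the symbol pattern. An immortalized mouse brown adipocyte line had been differentiated for 8 days and then kept for 18 h with DMSO (4 arrays) or with 10 µM Z16078526 in that vehicle (4 arrays). The study set out to describe what the compound does to these cells. The labels do not say if replicate arrays were separate cultures, and the p-values then cover only the spread among these arrays, possibly a technical one.

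Newly made proteins fold with the help of chaperones. The HSP70 proteins bind short unfolded stretches, J-domain proteins bring them substrates and start their ATP cycle, and BAG and HSP110 proteins release the nucleotide. The chaperonin is a double ring of several kinds of subunit that folds actin and tubulin, which prefoldin hands to it. HSP90 finishes kinases and nuclear receptors together with its cochaperones. Small heat shock proteins hold unfolded proteins without using ATP, and HSF1 raises many of these genes after heat or other protein damage by binding heat shock elements, inverted repeats of GAA and TTC. In brown fat, the fat that burns lipid to make heat, such proteins serve a cell with a high turnover of mitochondrial protein.

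Promoter sequences are shown for 5 genes that changed, with matches to a pattern of 2 units of the heat shock element. They are all the genes that rose or fell in which such a match was found, and so were picked by the match. Chordc1, Hspa1a and Bag3 are known to be induced by HSF1. So is Stip1, which rose and had no match. RefSeq promoter windows (build GRCm38.p6) run from 250 bases before to 50 bases after a transcript start. Capitals mark every match to GAANNTTC or TTCNNGAA, each of which reads the same on both strands, and overlapping matches run together.
Chordc1, chr9:18292017-18292316, plus strand, rose: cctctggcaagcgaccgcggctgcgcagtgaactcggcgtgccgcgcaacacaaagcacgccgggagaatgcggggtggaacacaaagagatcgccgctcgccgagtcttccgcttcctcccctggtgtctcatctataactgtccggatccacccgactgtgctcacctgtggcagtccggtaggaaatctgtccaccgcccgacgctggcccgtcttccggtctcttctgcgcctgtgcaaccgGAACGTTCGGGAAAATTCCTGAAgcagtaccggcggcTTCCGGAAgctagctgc
Cct5, chr15:31601797-31602096, minus strand, rose: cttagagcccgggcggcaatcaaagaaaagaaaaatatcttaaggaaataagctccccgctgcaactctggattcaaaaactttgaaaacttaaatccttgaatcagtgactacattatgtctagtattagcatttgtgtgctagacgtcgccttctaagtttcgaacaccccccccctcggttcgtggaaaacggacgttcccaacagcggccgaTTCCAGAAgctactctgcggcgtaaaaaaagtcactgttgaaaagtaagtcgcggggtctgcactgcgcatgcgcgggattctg
Hspa1a, chr17:34972107-34972406, minus strand, fell: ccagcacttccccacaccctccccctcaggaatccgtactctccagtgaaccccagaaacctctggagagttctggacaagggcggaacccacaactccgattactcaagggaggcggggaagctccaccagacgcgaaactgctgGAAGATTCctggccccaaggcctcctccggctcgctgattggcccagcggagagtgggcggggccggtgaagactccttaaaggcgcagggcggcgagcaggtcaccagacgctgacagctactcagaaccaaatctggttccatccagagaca
Bag3, chr7:128523333-128523632, plus strand, fell: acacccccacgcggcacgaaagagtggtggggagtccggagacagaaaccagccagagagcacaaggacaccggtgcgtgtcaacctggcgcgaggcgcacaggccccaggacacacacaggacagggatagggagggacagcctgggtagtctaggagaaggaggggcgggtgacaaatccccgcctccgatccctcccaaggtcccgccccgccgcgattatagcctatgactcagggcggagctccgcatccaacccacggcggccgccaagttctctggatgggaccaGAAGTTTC
Hspb6, chr7:30553051-30553350, plus strand, fell: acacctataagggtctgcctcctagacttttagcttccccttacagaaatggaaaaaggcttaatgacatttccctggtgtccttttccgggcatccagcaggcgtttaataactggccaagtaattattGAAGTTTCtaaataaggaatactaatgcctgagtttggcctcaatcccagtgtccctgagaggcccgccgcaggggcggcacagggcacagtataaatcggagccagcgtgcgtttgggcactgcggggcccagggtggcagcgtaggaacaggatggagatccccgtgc
The Chordc1 window holds 5 such matches, and among them 3 overlapping matches to the three-unit form GAANNTTCNNGAA or its reverse complement TTCNNGAANNTTC. One match of Chordc1 spans the transcript start and the others, like that of Bag3, lie after it. The windows shown for Cct5, Hspa1a, Bag3 and Hspb6 hold 1 match each and no match to the three-unit form. Cct5 and Hspb6 each have a second window, not shown, with 0 matches. Windows were found for 38 of the 45 genes, and 16 of these genes (42.1%) had a match in at least 1 window. Over all 32851 windows the share was 15.1%, and over all genes with a window 17.0%. Matches occurred in 2 of 8 genes that rose, 3 of 5 that fell and 11 of 25 that were not called. These counts leave out Hsp90aa1 and Cct4, which rose, and Cryab, which fell, because no window was found for them. The three-unit form was found in 3 of the 38 genes (7.89%), against 0.662% of all genes with a window and 0.603% of all windows. The 3 genes were Chordc1, which rose, and Hsph1 and Dnajb6, which were not called. A match describes these letters and is not a bound site, and a window without one says only that the letters are not in it.

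Values below are log2 intensities of 1 probe per gene, in which 4 is the floor set for dim probes. The word called stands for an adjusted p under 0.05 in limma, with Benjamini-Hochberg adjustment over all 16593 genes and n = 4 arrays per group. In treated cells 10 of the 45 genes rose and 6 fell. The background over all genes was 7.97% called higher and 7.19% called lower, together 15.2%. At an unadjusted p under 0.05, 2249 of the 16593 genes were higher and 1920 lower, which is the background for the unadjusted counts below. Of the 45 genes, 20 were higher and 8 lower at that threshold. Changes over 1.5-fold were called in 8 of the 45 genes, 4 in each direction, against 5.33% of all genes. Of the 45 genes, 40 lay above the floor on all 8 arrays, and these held all 16 calls, so that 25.0% of them rose and 15% fell. Of the 7965 genes that cleared the floor everywhere, 16.1% rose and 14.4% fell. The share that fell was thus near the background and is not a result about these genes. The median log2 difference was 0.23 over the 45 genes and 0.00 over all genes, and it was 0.23 and 0.02 where only those above the floor throughout were taken. The groups did not overlap in 22 of the 45 genes, against 19.8% of all genes. That share, the 5.33% and the unadjusted counts over all genes also take in 5504 genes at the floor on all 8 arrays, whose groups cannot separate. Only 1 of the 45 was such a gene. When only genes above the floor on at least 4 arrays were tested, 19 of 43 rose and 7 fell, against 21.1% and 18.9% of 9165 genes. Without treated array 2 the number that rose was 6, and the 6 that fell were still 6.

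**Figure D1:**
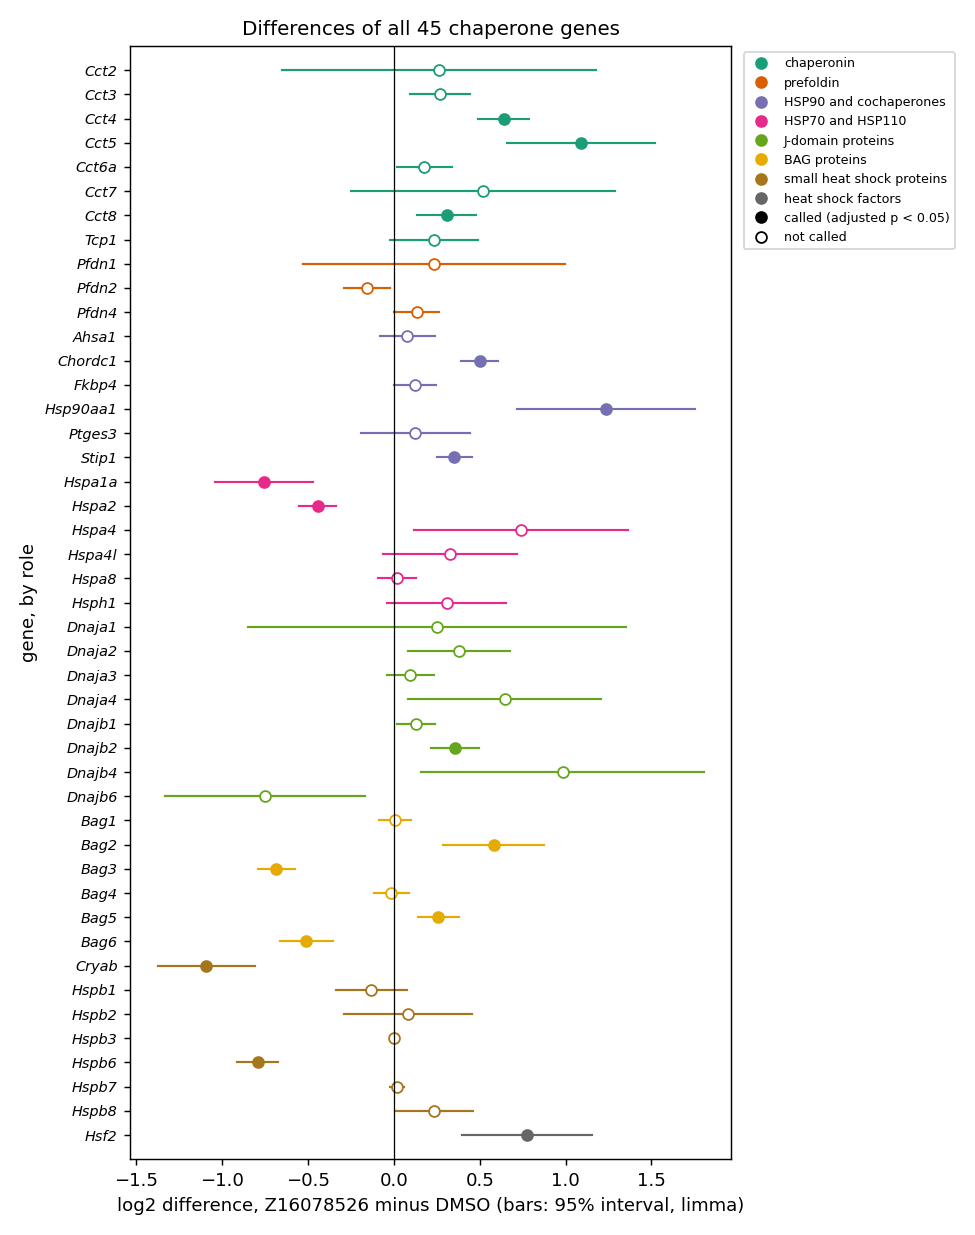
Log2 difference between Z16078526 and DMSO for each of the 45 genes, in order of role, with its 95% interval from limma (n = 4 arrays per group). Filled points passed an adjusted p of 0.05 (10 higher, 6 lower), and all 8 chaperonin points lie above 0.

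The sample labels were checked against marker genes. Of 9 adipocyte markers 8 were above the floor on every array, while Cd36 was above it on 1 treated array alone. Of the 9, 2 were called higher (Fabp4 and Cidec), 2 lower (Lep and Pparg) and 5 not called. Adipoq, among those not called, had a mean log2 of 14.48 in DMSO and 14.44 in treated cells. Of 7 brown fat markers, Ucp1 (4.87 and 6.25), Cidea (10.05 and 11.21) and Cox8b (10.18 and 10.74) were called higher and Cox7a1 (14.33 and 14.31) was not. Elovl3 was above the floor on 2 treated arrays, and no array read Dio2 or Prdm16 above it. Of the 3 macrophage markers measured, 2 were at the floor throughout and Adgre1 was above it on 1 treated array. Of 4 endothelial markers, Cdh5 and Kdr were at the floor, Pecam1 was above it on 1 DMSO and 3 treated arrays, and Tek, above it on the DMSO arrays alone, was called lower (adjusted p = 0.00755). Across 91 probes of other genes with a steady DMSO signal (SD under 0.15) and an uneven treated signal (SD over 0.5), treated array 1 deviated from the treated mean by 0.71 and treated array 3 by -0.80 on the log2 scale. In a bulk sample, fewer cells of a type and less RNA per cell cannot be told apart.

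Of the 8 subunit genes of the chaperonin 3 rose and 5 were not called, with a median log2 difference of 0.29. All 8 lay above the floor on all arrays, where the background was 16.1% called higher. None was called lower by limma, and at an unadjusted p under 0.05 there were 5 higher and 0 lower. Cct4, the delta subunit, read 12.03, 12.28, 12.23 and 12.13 on the DMSO arrays and 12.83, 12.80, 12.72 and 12.88 on the treated ones. Every treated array was above every DMSO array, by a mean of 1.56-fold (log2 0.64 ± 0.06 SE, adjusted p = 0.00147). Cct5, the epsilon subunit, read 6.19, 6.75, 6.23 and 5.98 in DMSO against 7.26, 7.34, 7.31 and 7.59. Its groups were also apart, with DMSO array 2 closest to the treated values, and its rise was 2.13-fold (1.09 ± 0.18, adjusted p = 0.00949). This was at low signal, with mean intensities of 79.7 in DMSO and 167 in treated cells on the linear scale. Those of Cct4 were 4609 and 7168. Cct8, the theta subunit, went from 12.25, 12.53, 12.50 and 12.39 to 12.62, 12.79, 12.77 and 12.73, a rise of 1.24-fold (0.31 ± 0.07, adjusted p = 0.0316). The gap between its groups was small, and its call was lost without DMSO array 3 or 4 or without treated array 2, 3 or 4, with adjusted p between 0.0526 and 0.0898.

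The other 5 subunit genes had log2 differences of 0.18 to 0.52 and were not called. Tcp1, the alpha subunit, read 12.54, 12.71, 12.58 and 12.58 in DMSO. On the treated arrays it read 13.08, 12.93, 12.68 and 12.64, so the groups overlapped and treated arrays 1 and 2 stood highest (log2 0.23 ± 0.11, adjusted p = 0.250). Cct3 was at 0.27 ± 0.07 (adjusted p = 0.0554), and Cct6a at 0.18 ± 0.07 (0.147). The Cct6a groups were only just apart, with 12.539 on the highest DMSO array and 12.545 on the lowest treated one. Cct2 and Cct7 were read near the floor, at mean log2 values of 5.72 and 5.27 in DMSO, and their 95% intervals ran from -0.65 to 1.18 and from -0.25 to 1.29. When only genes above the floor on at least 4 arrays were tested, Cct3, Cct6a and Tcp1 were called higher too, which made 6 of 8. Second probes of Cct3 and Tcp1, above the floor on all arrays, gave differences of -0.11 and -0.12, and both read lowest on treated array 3. Averaging both probes gave differences of 0.08 for Cct3 and 0.05 for Tcp1. On the tested probe alone, the Cct3 difference without treated array 1 was 0.32 and was called (adjusted p = 0.0285).

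Prefoldin had 3 measured genes and 0 calls in either direction by limma, with 1 higher and 1 lower at an unadjusted p under 0.05. Pfdn2 differed by -0.16 ± 0.06 (adjusted p = 0.131), with every treated array below every DMSO array. The gap was very small, with 11.483 on the highest treated array and 11.484 on the lowest DMSO array. Pfdn4 differed by 0.13 ± 0.05 (0.193). Pfdn1 was near the floor. The prefoldin 3 subunit is encoded by Vbp1, outside the symbol pattern, and it rose 1.96-fold (0.97 ± 0.15, adjusted p = 0.00779).

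HSP90 and its cochaperones had 3 of 6 genes called higher, with a median log2 difference of 0.24. All 6 lay above the floor on all arrays, where the background was 16.1% called higher. None was called lower by limma, and at an unadjusted p under 0.05 there were 4 higher and 0 lower. Hsp90aa1, the inducible cytosolic HSP90, read 5.72, 5.78, 5.08 and 5.55 in DMSO and 6.93, 6.66, 7.03 and 6.44 in treated cells. The groups were apart and the rise of 2.35-fold (log2 1.24 ± 0.22, adjusted p = 0.0115) was the largest of the 45 genes, at low signal, with mean intensities of 47.0 and 110 on the linear scale. A second probe was dimmer still and gave 0.32. Chordc1, a zinc-binding cochaperone of HSP90, was steady in DMSO at 10.51, 10.49, 10.50 and 10.49. Treated arrays read 10.89, 10.96, 11.11 and 11.02, all above DMSO, a rise of 1.41-fold (0.50 ± 0.04, adjusted p = 0.00111). Stip1, the adaptor that joins HSP70 to HSP90, rose 1.28-fold from 12.14, 12.27, 12.18 and 12.16 to 12.51, 12.60, 12.59 and 12.46 (0.35 ± 0.04, adjusted p = 0.00304). The remaining cochaperones moved little: Ahsa1, which speeds the HSP90 ATPase, by 0.08 ± 0.07, the immunophilin gene Fkbp4 by 0.12 ± 0.05 and the p23 gene Ptges3 by 0.12 ± 0.13. None of these 3 was called (adjusted p 0.684, 0.194 and 0.758), and the upper ends of their 95% intervals were 0.24, 0.25 and 0.44.

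Of the 6 HSP70 and HSP110 genes, 0 were called higher and 2 lower by limma, and 1 was higher and 2 lower at an unadjusted p under 0.05. All 6 lay above the floor on all arrays, where the background was 16.1% called higher and 14.4% called lower. The median log2 difference was 0.16, and 4 of the 6 differences were positive. Hspa1a, the heat-inducible HSP70, read 7.22, 7.002, 7.15 and 6.94 in DMSO and 6.16, 6.26, 6.55 and 6.32 in treated cells. It fell on every treated array below the lowest DMSO array, by a mean of 1.69-fold (log2 -0.76 ± 0.12, adjusted p = 0.00811). Hspa1a and Hspa1b are nearly identical neighbours, so the probe may read both. Hspa2, a heat shock protein best known from the testis, fell 1.36-fold from 10.51, 10.56, 10.46 and 10.40 to 10.09, 9.95, 10.06 and 10.05 (-0.44 ± 0.04, adjusted p = 0.00160). A second Hspa2 probe gave -0.37.

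Hspa8, the constitutive HSP70 of the cytosol, read 14.86, 14.94, 14.88 and 14.88 in DMSO against 14.89, 14.86, 15.003 and 14.89. The groups overlapped, and the difference of 0.02 had a 95% interval of -0.09 to 0.13. Its second probe read 13.10, 13.21, 13.26 and 13.23 in DMSO and 13.04, 12.48, 11.45 and 12.42 in treated cells. That probe was lowest on treated array 3 and nearest to DMSO on treated array 1, the order seen in the 91 uneven probes. Their part in it was not tested. With the mean of both probes the Hspa8 difference was -0.42 (adjusted p = 0.130). The HSP110 family genes, which exchange the nucleotide of HSP70, were all higher on average but not called: Hsph1 by 0.31 ± 0.14 (adjusted p = 0.264), Hspa4 by 0.74 ± 0.26 (0.124) and Hspa4l by 0.32 ± 0.16 (0.307). Hspa4 and Hsph1 were called when only genes above the floor on at least 4 arrays were tested.

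**Figure D2:**
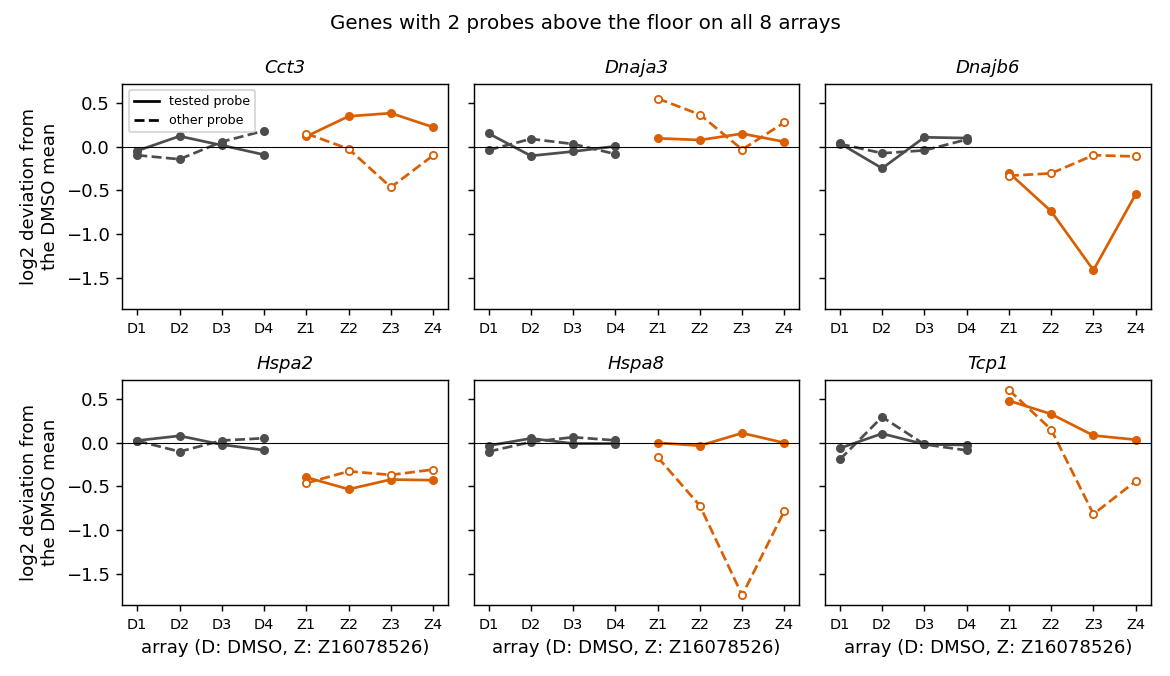
Log2 deviation from the DMSO mean on each array, for the 6 genes with 2 probes above the floor on all 8 arrays (solid, tested probe; dashed, other probe; D1 to D4 are DMSO and Z1 to Z4 Z16078526 arrays). Both Hspa2 probes are lower on all treated arrays, while the second probes of Hspa8, Tcp1 and Cct3 and the tested probe of Dnajb6 are lowest on treated array 3.

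Of the 8 J-domain genes, 1 was called higher and 0 lower by limma, and at an unadjusted p under 0.05 there were 5 higher and 1 lower. Among the 7 above the floor on all arrays 14.3% rose, near the background of 16.1%. Dnajb2, a J-domain protein with ubiquitin-binding motifs, read 9.67, 9.65, 9.77 and 9.71 in DMSO and 10.00, 9.93, 10.13 and 10.16 in treated cells. The groups were apart and the rise was 1.28-fold (log2 0.36 ± 0.06, adjusted p = 0.00885). The heat-inducible Dnajb1 was above DMSO on every treated array by a small margin, with a difference of 0.13 ± 0.05 (adjusted p = 0.138) and a 95% interval of 0.02 to 0.24. Dnajb4 (0.98 ± 0.34, adjusted p = 0.122) and Dnaja2 (0.38 ± 0.12, 0.10) did not overlap between groups either, by small margins, and were not called. Both were called, as was Dnaja4, when only genes above the floor on at least 4 arrays were tested, and Dnaja4 was also called without DMSO array 2 (log2 0.84, adjusted p = 0.0283, against 0.64 and 0.138 with all arrays). A second Dnajb4 probe, above the floor on 5 arrays, gave -0.16, and a further one lay at the floor throughout. With the mean of the probes the Dnajb4 difference was 0.28. Dnaja1 lay at the floor on 2 DMSO arrays and 1 treated array, so its difference of 0.25 is largely set by the floor. Dnajb6 was the J-domain gene with a negative difference, -0.75 ± 0.24 (adjusted p = 0.0971). Its treated arrays read 9.86, 9.41, 8.74 and 9.61, lowest on array 3, and without that array the difference was -0.53 (adjusted p = 0.0656). It was called lower under the same filter on dim genes (adjusted p = 0.00248). A second Dnajb6 probe, annotated to another transcript, gave -0.21.

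The BAG family split, with 2 of 6 called higher, 2 lower and the remaining 2 near no difference. All 6 lay above the floor on all arrays, where the background was 16.1% called higher and 14.4% called lower. Bag3, which links HSP70 and small heat shock proteins to autophagy and is induced by HSF1, read 11.69, 11.73, 11.55 and 11.58 in DMSO. Treated arrays read 10.96, 10.997, 10.93 and 10.93, all far below, a fall of 1.61-fold (log2 -0.68 ± 0.05, adjusted p = 0.000525). Bag6, which guides tail-anchored and misplaced membrane proteins in the cytosol, fell 1.42-fold from 10.10, 10.04, 9.96 and 9.96 to 9.34, 9.51, 9.59 and 9.57 (-0.51 ± 0.06, adjusted p = 0.00346). Bag2, an inhibitor of the ubiquitin ligase that acts with HSP70, went from 7.44, 7.72, 7.34 and 7.62 to 8.17, 8.21, 8.24 and 7.84. It rose 1.497-fold (0.58 ± 0.12, adjusted p = 0.0227), with treated array 4 close to DMSO array 2. Bag5, a nucleotide exchange factor with several BAG domains, rose 1.197-fold from 9.40, 9.25, 9.32 and 9.39 to 9.54, 9.65, 9.53 and 9.68 (0.26 ± 0.05, adjusted p = 0.0168). The Bag2 call was lost without DMSO array 1 or 3 or treated array 1, 2 or 3 (adjusted p 0.0563 to 0.0697), and that of Bag5 without DMSO array 3 (0.0522) or treated array 2 (0.0528) and with robust variance (0.0612). The differences of Bag1 and Bag4 were 0.01 and -0.01, with 95% intervals of -0.09 to 0.10 and -0.12 to 0.09.

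Small heat shock proteins had 0 of 7 called higher and 2 lower by limma, and 1 higher and 2 lower at an unadjusted p under 0.05. Of the 4 above the floor on all arrays 50% fell, against a background of 14.4%. Cryab, alpha B crystallin, read 8.12, 8.26, 8.18 and 8.35 in DMSO. On the treated arrays it read 6.999, 7.46, 7.06 and 7.02, with array 2 highest and still below all DMSO arrays. The fall of 2.13-fold (log2 -1.09 ± 0.12, adjusted p = 0.00203) was the largest decrease of the 45 genes. Hspb6, known as HSP20 and abundant in muscle, read 13.23, 13.17, 12.99 and 13.16 in DMSO and 12.36, 12.36, 12.32 and 12.33 in treated cells. The treated values were almost equal and the groups far apart, a fall of 1.73-fold (-0.79 ± 0.05, adjusted p = 0.000509). Hspb1, known as HSP25 in the mouse and HSP27 in humans, read 8.41, 8.57, 8.36 and 8.37 against 8.33, 8.39, 8.40 and 8.07. Its groups overlapped, with a difference of -0.13 ± 0.09 (adjusted p = 0.492) and a 95% interval of -0.34 to 0.07.

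Hspb8, the partner of Bag3 in chaperone-assisted autophagy, read 10.55, 10.54, 10.57 and 10.53 in DMSO and 10.96, 10.87, 10.81 and 10.50 in treated cells. Treated array 4 was below all DMSO arrays and the other three above them. The difference was 0.24 ± 0.09 (adjusted p = 0.180), and without treated array 4 it was 0.33 and called (0.00599). Hspb3 was at the floor on all 8 arrays, and Hspb2 and Hspb7 at or near it. Cryab and Hspb6 are also muscle genes, and 2 of 7 muscle markers fell too. These were the only 2 of that list above the floor on all arrays, where the background was 14.4% called lower. Of 7 muscle markers measured, Mb (myoglobin, log2 -1.29 ± 0.11, adjusted p = 0.000947) and Des (desmin, -0.48 ± 0.12, adjusted p = 0.0372) fell and 0 rose, while Myod1, Myf5 and Ckm were at the floor on all arrays. At an unadjusted p under 0.05 there were also 2 lower and 0 higher. Myog and Acta1 were near the floor and not called. The summed intensity of that list was 3413 to 3780 on the DMSO arrays and 1285 to 1804 on the treated ones. Most of this sum came from Mb, with mean intensities of 3174 in DMSO and 1309 in treated cells. Of 8 preadipocyte and fibroblast markers, Dcn and Vim fell, with sums of 14204 to 16319 and 9014 to 12397, and Thy1 was at the floor. Of the 7 above the floor on all arrays 28.6% fell, against the same 14.4%. The part of these marker genes in the fall of Cryab and Hspb6 was not tested.

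Hsf2, a heat shock factor best known from development, was the measured factor. It read 6.84, 7.02, 6.56 and 6.95 in DMSO and 7.25, 7.77, 7.76 and 7.69 in treated cells, with treated array 1 nearest to DMSO. The rise was 1.71-fold (log2 0.77 ± 0.16, adjusted p = 0.020). The call was lost without DMSO array 1 (adjusted p = 0.0577) or without treated array 2 (0.0628), 3 (0.0536) or 4 (0.0564).

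**Figure D3:**
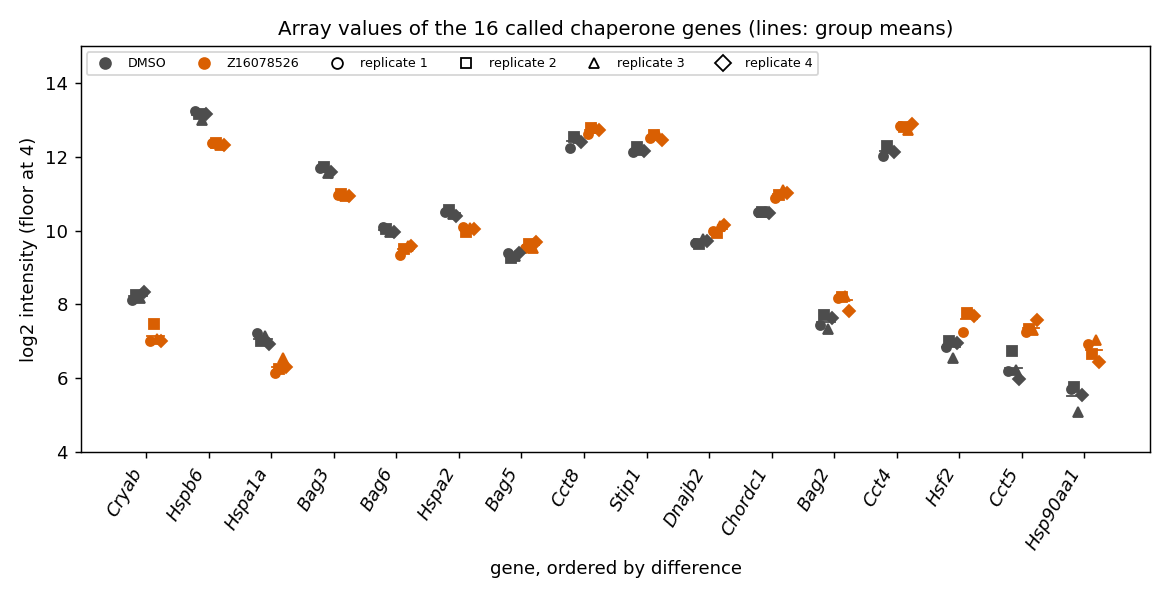
Log2 intensity on each array of the 16 called genes, ordered from the largest decrease (Cryab) to the largest rise (Hsp90aa1); grey, DMSO; orange, Z16078526; lines, group means; symbols, replicate numbers. The groups are apart for every gene shown. Heights of different genes are not comparable, because each is read by its own probe.

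Set side by side, chaperonin and HSP90 cochaperones on the one hand and small heat shock proteins on the other had medians of opposite sign on each treated array. The median deviation of the 8 chaperonin genes from their DMSO means was 0.38, 0.49, 0.47 and 0.24 on treated arrays 1 to 4, and lay between -0.14 and 0.12 on the DMSO arrays. For the 6 HSP90 and cochaperone genes it was 0.21, 0.27, 0.42 and 0.17, against -0.01 to 0.04 in DMSO. For the 4 small heat shock protein genes above the floor it was -0.44, -0.40, -0.42 and -0.58, against -0.06 to 0.03. The last of these rests on 4 genes, of which Cryab and Hspb6 fell and Hspb1 and Hspb8 were not called. No test of the difference between the groups was made. Treated array 4 had the smallest median rise of both rising groups, and treated array 3 the largest for HSP90 and its cochaperones.

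**Figure D4:**
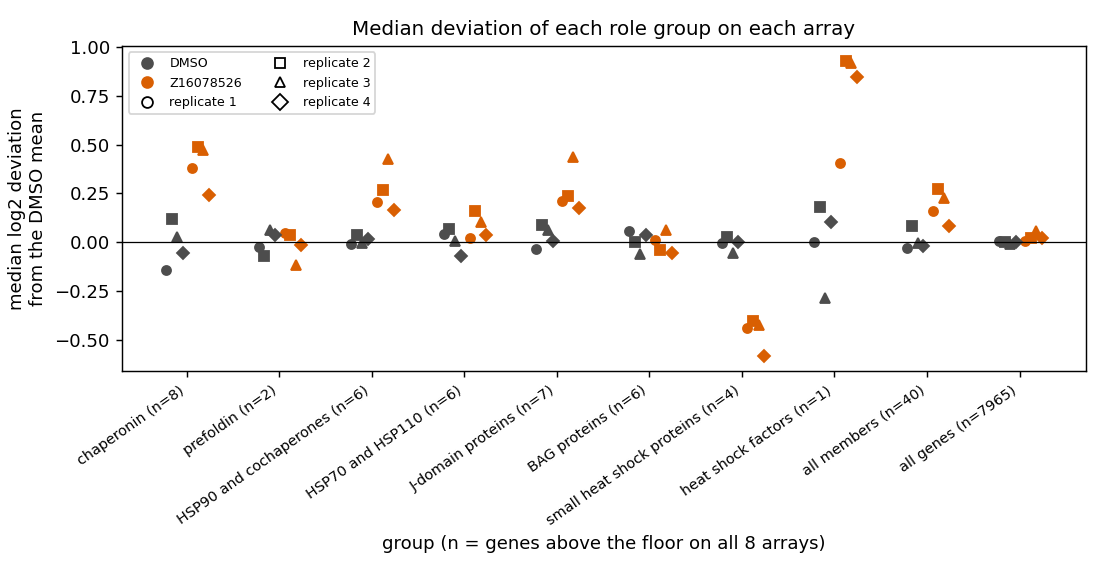
Median log2 deviation from the DMSO mean on each array, by role, for genes above the floor on all 8 arrays (n under each group); grey, DMSO; orange, Z16078526. Chaperonin medians on the treated arrays run from 0.24 to 0.49 and small heat shock protein medians from -0.58 to -0.40, while the median of all 7965 genes stays between -0.01 and 0.06.

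Among genes known to be induced by HSF1, members went both ways. Of 17 measured, 15 of which are among the 45, 5 rose (Hsp90aa1, Chordc1, Stip1 and the mitochondrial pair Hspe1 and Hspd1) and 3 fell (Hspa1a, Bag3 and Cryab). The median log2 difference was 0.24. Of the 16 above the floor on all arrays 31.2% rose and 18.8% fell, against 16.1% and 14.4%. Hspe1, the mitochondrial HSP10, rose 1.98-fold (0.98 ± 0.14, adjusted p = 0.00600).

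Other cytosolic cochaperones and folding factors, outside the symbol pattern, had 6 of 35 called higher and 3 lower, with a median log2 difference of 0.10. All of these calls were among the 28 above the floor on all arrays, of which 21.4% rose and 10.7% fell, near the background of 16.1% and 14.4%. Ttc4, a cochaperone that binds HSP70 and HSP90, rose 1.32-fold (0.41 ± 0.04, adjusted p = 0.00212), and the prefoldin-like genes Uxt and Pdrg1 rose 1.39-fold and 1.40-fold. The glucocorticoid-induced immunophilin gene Fkbp5 fell 1.51-fold (-0.59 ± 0.09, adjusted p = 0.00782), as did Nudc (1.21-fold) and Dnajc7 (1.24-fold). Of 16 genes for actin, tubulin and tubulin cofactors, which the chaperonin serves, 0 rose and 3 fell by limma: Tubb5 (log2 -0.53), Tubg1 (-0.46) and Actb (-0.36). At an unadjusted p under 0.05 there were 2 higher and 4 lower. Of 9 mitochondrial chaperone genes, which include Dnaja3, 4 rose and 0 fell, with 5 higher and 0 lower at an unadjusted p under 0.05. Of 11 chaperone genes of the endoplasmic reticulum 4 rose and 1 fell. In these last 2 lists Hspd1 and Hspe1, Grpel1 and Clpb, and Hspa5, Hsp90b1, Pdia6 and Dnajc3 were the genes that rose, and P4hb the gene that fell. All of these calls were in genes above the floor on all arrays, 9 mitochondrial and 10 of the endoplasmic reticulum, against the same background, and all 3 falls of the actin and tubulin list in 12 such genes.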

How the data were processed

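Total RNA from 8 samples was measured by array, 4 per group, grouped by sample title. The authors deposited 1 table of background-subtracted intensities on a linear scale for 25697 probes; the submitters' processing notes name GenomeStudio, and the sources used here do not give its settings. From 28.28% to 28.44% of an array's intensities lay below 0, and all columns shared an upper quartile of 307.989, as quantile normalization leaves them. Array number limits the precision. Probe names are Illumina's, per the deposited table, while the labels name an Agilent labelling protocol. No batch is given in the labels.

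Intensities below 16 were raised to 16 before the log2. Of the probes, 23978 had 1 gene symbol in GEO's platform annotation. The probe with the highest mean intensity stood for each of 16593 genes. Groups were compared with limma 3.58.1 (lmFit, eBayes with trend, two-sided) in R 4.3.3, group as the only term. The steps were tested on simulated data. The members, role groups and gene lists were chosen with earlier results of these data known. Up to 4 called genes per role and direction, called genes over 1.5-fold and 10 set genes are given array by array; other genes named were chosen after their values were seen. Alternatives covered the floor, scaling, dim-probe filters, variance model, replicate block, probe choice, thresholds and each array left out.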

Additional observations from a re-analysis of the deposited data

Results flagged for a closer look

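Of 38 groups of 4 values examined, 2 held an array standing far from the other three, about what chance gives at 1 in 20 groups. Cryab read 7.46 on treated array 2, where the nearest treated array read 7.06, and Hsf2 read 7.25 on treated array 1, where the nearest read 7.69. The cause of either was not tested.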

How the results depend on the processing

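With 22 other settings run gene by gene (21 where a filter on a mean log2 above 7 left the gene out), 8 of the 16 called genes (Cct4, Chordc1, Stip1, Hspa2, Dnajb2, Bag3, Cryab and Hspb6) kept their call and direction in each, and 4 more (Cct5, Hsp90aa1, Hspa1a and Bag6) lost it only with the replicate block. That block also ended the calls of Bag2 (adjusted p = 0.114), Bag5 (0.0836) and Hsf2 (0.0866). These 22 leave out the thresholds below. No called gene changed direction. The replicate number as a block called 1123 of all genes and, of the 45, 6 higher and 4 lower. The same-number arrays deviated with correlations of -0.06, 0.04, -0.15 and 0.10, and 3 of 8 arrays correlated best with their own number. With 4 arrays per group, these values cannot tell whether same-number arrays share a culture or a batch. An adjusted p under 0.01 left 1194 genes, with 5 of the 45 higher and 6 lower (Cct8, Hsp90aa1, Bag2, Bag5 and Hsf2 were lost), and a 1.5-fold minimum left 884, with 4 of the 45 higher and 4 lower (Cct8, Chordc1, Stip1, Hspa2, Dnajb2, Bag2, Bag5 and Bag6 were lost). Testing only genes above the floor on at least 4 arrays called 19 of the 43 tested chaperone genes higher and 3670 genes in all. The prior degrees of freedom were then 9.81 against 0.574. Leaving out 1 array at a time gave 1774 to 2465 genes, 6 to 11 of the 45 higher and 6 lower throughout. A covariate for the uneven probes, added after seeing the data and centred within each group, called 12 higher and 7 lower. Low signal limits Cct2, Cct5, Cct7, Pfdn1, Dnaja1 and Hsp90aa1, and 1 probe per gene limits most others. The cause of these changes was not tested.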
